A study of Mus musculus with 4 samples.

Results

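Folding of chromosome X was examined around 10 genes of the extracellular matrix, the cell surface and the cytoskeleton: Timp1, Bgn, Col4a5, Col4a6, Gpc3, Gpc4, Flna, Tmsb4x, Fhl1 and Plp2. They were chosen by name as genes that fibroblasts use, out of 966 protein-coding genes on the chromosome. Each was placed by its midpoint in a 250 kb and a 100 kb bin, and all 10 fell in bins that had values at both sizes. Values were present in 588 of 683 bins of 250 kb and in 1461 of 1707 bins of 100 kb. Chromosome X was measured by Hi-C, which joins and reads pieces of DNA that are neighbours inside the nucleus. The cells were tail tip fibroblasts (TTF) of female hybrid mice that carry 1 mus and 1 cas copy of each chromosome. The groups were Sirt7-/- (KO, 2 samples) and wild type (WT, 2 samples), and no treatment, age or culture passage was given in the sources used here. Cells of both groups were fixed with 2% formaldehyde and their chromatin was cut with HindIII.

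The 2 samples of each genotype were combined before deposit. Each genotype thus had 1 matrix per allele and bin size, no difference between KO and WT below has a replicate check, and no test, SD or p-value can be given. The labels do not state which of the copies was inactive, and the files hold no expression values, so that neither the fibroblast label nor the expression of the genes was checked. The number of reads is unknown. In its place, the average entry between neighbouring 250 kb bins was taken, which was 0.131 in KO and 0.149 in WT on mus, and 0.184 in KO and 0.196 in WT on cas. For the bins of the 10 genes and their neighbours it was 0.0959 in KO and 0.125 in WT on mus, and 0.157 in KO and 0.150 in WT on cas. Whether the weaker neighbour correlation of the KO mus matrix has a part in the differences on mus was not tested.

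Fibroblasts lay down and remodel the extracellular matrix and pull on it through an actin cytoskeleton. Matrix proteoglycans and collagens are secreted, glypicans stay on the cell surface and modulate growth factor signals, and metalloproteinase inhibitors set how fast the matrix is broken down. In female mammals 1 X in each cell is silenced. The silent copy is known to lose most of its A and B compartments, in which gene-rich stretches meet other gene-rich stretches and gene-poor ones meet gene-poor ones, and to fold into a pair of megadomains that meet at the macrosatellite Dxz4. SIRT7, the sirtuin that the KO lacks, is an enzyme of the nucleus that takes acyl groups off proteins.

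Of the 10 genes, 7 lay left of Dxz4, toward the centromere, and 3 lay right of it. Timp1, which encodes a secreted inhibitor of matrix metalloproteinases, lies at chrX:20870166-20874737 (mm10), 54.9 Mb left of Dxz4. Bgn, the gene of the matrix proteoglycan biglycan, lies at chrX:73483601-73495936, 2.26 Mb left of it. The basement membrane collagen genes Col4a6 (chrX:141165403-141474095) and Col4a5 (chrX:141475370-141689236) are neighbours 65.6 and 65.8 Mb right of Dxz4. The glypican genes Gpc4 (chrX:52051007-52164923) and Gpc3 (chrX:52272426-52613974) are neighbours too, 23.6 and 23.3 Mb left of it. Among the cytoskeletal genes, Fhl1, a LIM-domain protein gene, lies at chrX:56731209-56793346, Flna, the gene of the actin cross-linker filamin A, lies at chrX:74223461-74249854, and Tmsb4x, the gene of a thymosin that binds actin monomers, lies at chrX:167207093-167213479. Plp2, which encodes a proteolipid of cell membranes, lies closest to the centromere at chrX:7667941-7671390. The genes therefore sample the chromosome unevenly. The bins of Gpc4 and Gpc3 adjoin, as do those of Col4a6 and Col4a5, and Bgn and Flna lie 0.747 Mb apart, so that these pairs are not separate observations.

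A 250 kb bin also holds other genes, and a value belongs to the whole bin. The bin of Plp2 held 12 protein-coding genes, that of Bgn 7, those of Timp1 and Flna 6 each and that of Fhl1 3, whereas Gpc3, Gpc4, Col4a6 and Tmsb4x were the only protein-coding genes placed in theirs. Col4a5 shared its bin with Irs4. Gpc3 spans 341549 bases and Col4a6 308693, more than a bin, whereas Plp2 spans 3450 and Timp1 4572.

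The start regions below are shown for the genes whose bins carry the comparisons: Timp1 and Bgn, which with Fhl1 had the lowest KO minus WT compartment scores of the 10 on mus, and the collagen pair, whose starts face away from each other within the bin assigned to Col4a6. RefSeq (GRCm38.p6, the assembly of mm10) gave start regions for 9 of the 10 genes, in 10 windows of 300 bases, from 250 bases before the start to 50 after. The windows are chrX:20869916-20870215 (plus strand) for Timp1, chrX:73483351-73483650 (plus) for Bgn, chrX:141474027-141474326 (minus) for Col4a6 and chrX:141475169-141475468 (plus) for Col4a5. Capitals mark GGGCGG on either strand, a core of the sites bound by Sp-family factors, and AAGCTT, the sequence that HindIII cuts.
Timp1: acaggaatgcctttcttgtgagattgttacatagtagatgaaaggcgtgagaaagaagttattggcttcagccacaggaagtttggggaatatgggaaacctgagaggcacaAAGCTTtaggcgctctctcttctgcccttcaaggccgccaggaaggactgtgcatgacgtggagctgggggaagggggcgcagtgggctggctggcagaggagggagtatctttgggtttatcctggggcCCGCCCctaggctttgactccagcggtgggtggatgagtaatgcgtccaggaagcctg
Bgn: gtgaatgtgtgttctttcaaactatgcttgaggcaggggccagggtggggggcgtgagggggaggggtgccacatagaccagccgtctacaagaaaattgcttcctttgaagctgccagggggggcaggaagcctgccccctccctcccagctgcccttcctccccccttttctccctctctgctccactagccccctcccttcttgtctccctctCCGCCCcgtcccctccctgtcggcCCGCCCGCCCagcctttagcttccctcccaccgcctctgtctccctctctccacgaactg
Col4a6: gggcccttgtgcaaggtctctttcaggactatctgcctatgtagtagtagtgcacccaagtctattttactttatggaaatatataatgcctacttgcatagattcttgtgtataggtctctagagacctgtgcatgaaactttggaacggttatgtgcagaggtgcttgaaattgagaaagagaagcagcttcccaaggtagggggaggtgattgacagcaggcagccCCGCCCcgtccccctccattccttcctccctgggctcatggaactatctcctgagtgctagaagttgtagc
Col4a5: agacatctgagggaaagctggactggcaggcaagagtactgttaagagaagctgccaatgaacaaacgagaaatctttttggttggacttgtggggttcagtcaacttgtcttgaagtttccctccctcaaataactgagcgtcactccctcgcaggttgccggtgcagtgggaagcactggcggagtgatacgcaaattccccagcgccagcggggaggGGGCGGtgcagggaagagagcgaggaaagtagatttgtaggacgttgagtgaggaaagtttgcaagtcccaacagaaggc

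By these windows 1342 bases lay between the first bases of Col4a6 (141474076) and Col4a5 (141475419), which are on opposite strands. The outermost bases of the gene coordinates given above, 141474095 and 141475370, differ from these starts and lie closer together. GGGCGG or its reverse complement CCGCCC was present 1 time in the windows of Timp1, Col4a6 and Col4a5 and 3 times in that of Bgn, where a pair of matches overlap. It was found in 33.9% of the 1223 chromosome X windows of the same length. TATAAA, searched on both strands, was in none of these 4 windows and in 14.6% of the chromosome X windows. Among the windows not printed, 1 of those of Fhl1 held TATAAA, and none of those of Fhl1 held GGGCGG. Those of Gpc4, Gpc3, Flna and Tmsb4x held GGGCGG and no TATAAA. The window of Timp1 held an AAGCTT, so a HindIII fragment end lies in its start region, as in 8.67% of the chromosome X windows. The Timp1 window had 55.0% G and C and 8 CpG dinucleotides, that of Bgn 63.7% and 9, that of Col4a6 48.3% and 3, and that of Col4a5 52.7% and 11. The chromosome X windows had medians of 51.0% and 7. These letters describe the windows only, and the matrices do not resolve them.

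On the cas chromosome the genes lay in the gene-rich compartment. Class A held the 20% of bins at the gene-rich end of the leading principal component of the averaged cas matrices, and class B the 20% at the opposite end. Of the 10 gene bins 9 were class A, against 20.1% of all bins. Counted by gene, class A bins held 340 of the 966 protein-coding genes of the chromosome. Fhl1 fell in neither class at 250 kb and in class A at 100 kb, whereas Gpc3 was class A at 250 kb and neither at 100 kb. Each bin's compartment score was the average entry it had with A bins less that with B bins, each at least 2 Mb away. It was above 0 on cas for all 10 genes in KO and in WT, against 33.5% of all bins in KO and 35.7% in WT. Because the classes came from the cas matrices, these levels describe the bins and are no independent finding.

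The levels on cas differed between the genes. Flna had the highest score, 0.367 in KO and 0.409 in WT, at the 99.1 percentile of all bins in KO and the 99.0 in WT. Tmsb4x had 0.321 in both genotypes. Gpc4 had 0.303 in KO and 0.284 in WT. Bgn, with 0.295 in KO and 0.281 in WT, lay close to Gpc4 in both. Col4a6 had 0.247 in KO, against 0.349 in WT. Its neighbour Col4a5 had 0.214 in KO and 0.217 in WT, so that the pair of adjoining collagen bins stood further apart in WT. Gpc3 had 0.243 in KO and 0.189 in WT. Timp1 had 0.233 in KO and 0.262 in WT. Plp2 had 0.166 in KO, against 0.236 in WT, and Fhl1 was lowest with 0.0928 in KO and 0.122 in WT. Flna, Tmsb4x, Gpc4 and Bgn thus kept this order in both genotypes, and Fhl1 was last in both.

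Between the genotypes, 6 of the 10 genes had a lower cas score in KO, against 39.1% of all bins. The median difference, KO minus WT, was -0.0160 over the 10 genes and 0.0230 over all bins. This direction depended on the scale: after each matrix was divided by the SD of its entries, 4 of 10 were lower and the median was 0.0981. Col4a6 was the only gene whose cas difference, -0.101, was larger than 1 SD of the differences over all bins, a size that 24.3% of all bins passed. It was lower at 100 kb too (0.0457 in KO and 0.0771 in WT), and after division by the SD. Plp2 followed with -0.0694, and it too was lower at 100 kb (0.0478 in KO and 0.0743 in WT) and after division by the SD.

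On the mus chromosome the scores were much smaller and the genes did not keep their cas order. In KO the left-hand genes other than Plp2 lay between -0.00908 and 0.0209, and in WT between 0.0293 and 0.0412. Timp1 had -0.00908 in KO and 0.0397 in WT. Bgn had -0.00571 in KO and 0.0330 in WT. Both thus lay below 0 in KO and near the top of the chromosome in WT, at the 33.7 and 41.5 percentiles in KO and the 95.9 and 91.0 in WT. Left-hand bins as a whole were higher in WT, with a median of -0.000918 in KO and 0.0200 in WT. Gpc4 had 0.0209 in KO and 0.0293 in WT, the smallest difference among the left-hand genes, while its neighbour Gpc3 had 0.0146 in KO and 0.0412 in WT. Fhl1 had -0.000198 in KO and 0.0386 in WT, and Flna had 0.0165 in KO and 0.0406 in WT. Plp2 went against the others on its side, with 0.00337 in KO and -0.0187 in WT.

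Right of Dxz4, Col4a6 had 0.00605 in KO and -0.0182 in WT on mus. Col4a5 had -0.000815 in KO and -0.00707 in WT. Tmsb4x had 0.000832 in KO and 0.00194 in WT, near 0 in both genotypes although its cas score was among the highest. Over the 10 genes, 6 scores on mus were above 0 in KO and 7 in WT, against 46.1% of all bins in KO and 45.7% in WT. The background differed by side in WT. Left of Dxz4, 4 of 7 genes were above 0 in KO and 6 in WT, against 47.2% and 83.1% of left-hand bins. Right of it, 2 of 3 were in KO and 1 in WT, against 45.5% and 21.6% of right-hand bins.

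The direction on mus followed the side of Dxz4. In KO 7 of the 10 genes had a lower mus score, against 47.3% of all bins. Left of Dxz4 the count was 6 of 7, against 85.3% of all left-hand bins, and right of it 1 of 3, against 22.8% of right-hand bins. These shares were near the background of each side, so the counts are not a result about these genes. The median difference of the 7 left-hand genes was -0.0266, and that of all 231 left-hand bins -0.0218. Differences larger than 1 SD of all bins were seen in 7 of 10 genes on mus, against 33.0% of all bins, and in 6 of the 7 left-hand genes, against 50.6% of left-hand bins.

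Plp2 was the exception. Its mus difference of 0.0221 lay at the 99.1 percentile of the 231 left-hand bins, whereas that of Timp1, -0.0488, lay at the 3.46 percentile, that of Fhl1, -0.0388, at the 14.3 and that of Bgn, -0.0387, at the 14.7. At 100 kb the mus scores were smaller. Timp1 had 0.00190 in KO and 0.00584 in WT there, Bgn 0.00328 in KO and 0.00632 in WT, and Plp2 0.00349 in KO and 2.72e-05 in WT, the same directions as at 250 kb, as for Fhl1 and Gpc3. For the other 5 of the 10 genes the direction turned at 100 kb. Gpc4 had 0.0119 in KO and 0.00552 in WT there, and Flna had 0.00635 in KO and 0.00343 in WT. The collagen genes had -0.00255 in KO and -0.000693 in WT for Col4a6, and -0.00573 in KO and -0.00135 in WT for Col4a5. Tmsb4x had 0.00352 in KO and 0.00310 in WT.

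**Figure D1:**
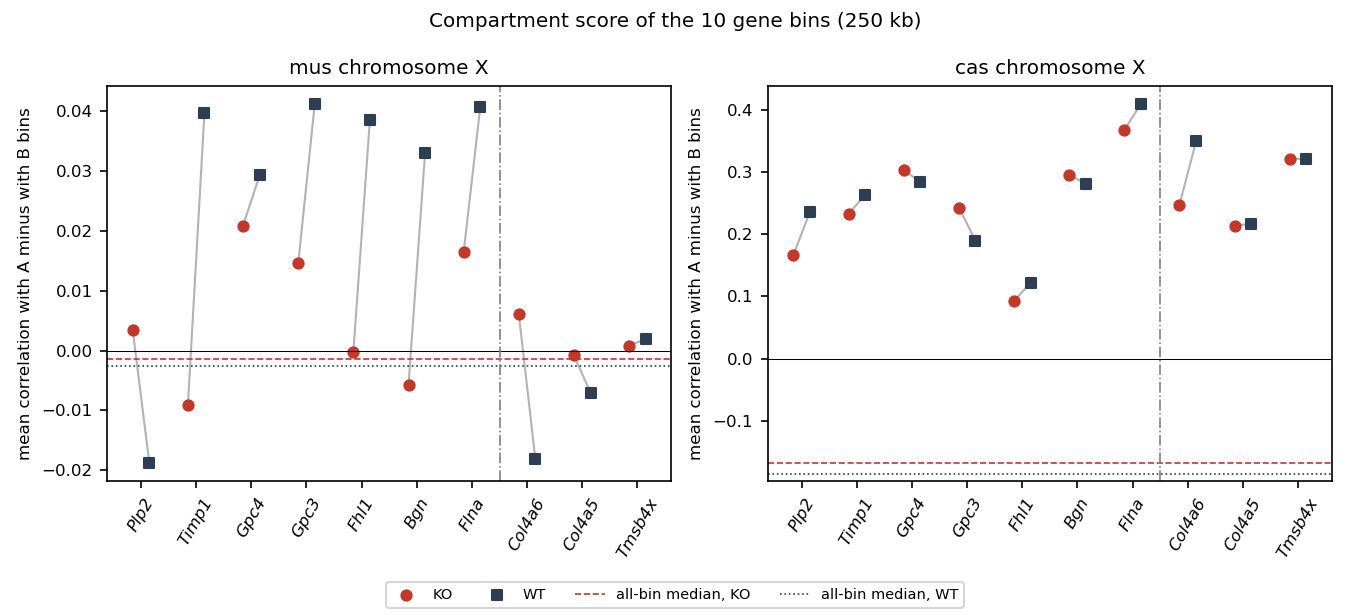
Compartment score (average entry with A bins less average entry with B bins, 250 kb, no unit) of the 10 gene bins in order along the chromosome, KO as circles and WT as squares, on the mus copy (left panel) and the cas copy (right panel), with a separate vertical scale for each. The dash-dotted line stands at Dxz4. On cas all 10 genes lie above 0, and on mus the left-hand genes other than Plp2 are lower in KO.

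The profiles along the mus chromosome showed where the left-hand genes differed. For Timp1 the difference lay just past Dxz4. In the 3 windows of 5 Mb from 55 to 70 Mb to its right, Timp1 had mean correlations of 0.0101, 0.0228 and 0.0369 in KO, against -0.0762, -0.0799 and -0.0508 in WT. Fhl1, which lies 19.0 Mb from Dxz4, had 0.00103, 0.0257 and 0.0297 in KO, against -0.0759, -0.0587 and -0.0654 in WT, in the windows from 20 to 35 Mb to its right. In WT both genes thus turned from positive to negative correlation at Dxz4, whereas in KO they stayed at or above 0 there. Farther away the profiles of Timp1 ran close together again, with 0.0835 in KO and 0.0909 in WT at 140 to 145 Mb.

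The profile of Plp2 differed in other places. Its correlations with the windows 30 to 45 Mb to its right, still left of Dxz4, were 0.0514, 0.0520 and 0.0489 in KO, against -0.000283, 0.00298 and -0.00368 in WT. Just past Dxz4, from 70 to 85 Mb to its right, they were -0.00266, -0.0188 and 0.00497 in KO, against 0.0493, 0.0484 and 0.0360 in WT. In KO the profile of Plp2 thus dropped at Dxz4, and in WT it did not. Col4a6 had lower correlations in KO with its own surroundings, 0.0806 in KO and 0.148 in WT within 5 Mb to its right. It was also lower in KO with windows across Dxz4, which lies 65.6 Mb to its left. It had 0.0437 in KO and 0.0943 in WT at 70 to 75 Mb to its left, and 0.0392 in KO and 0.116 in WT at 75 to 80 Mb.

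**Figure D2:**
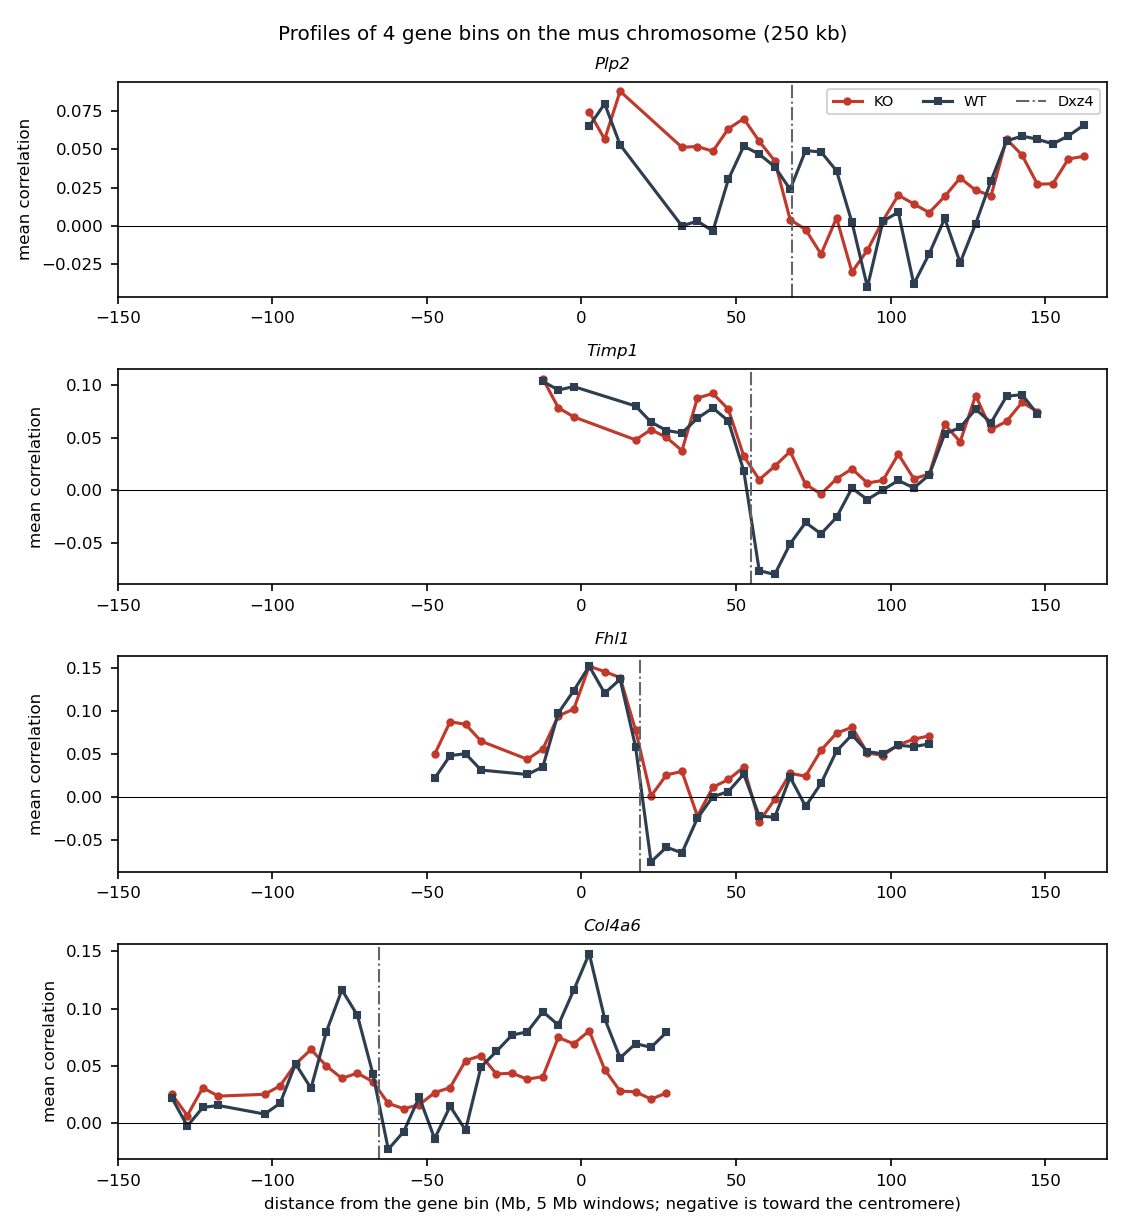
Mean correlation (no unit) of the mus bins of Plp2, Timp1, Fhl1 and Col4a6 with bins in 5 Mb windows, by distance from the gene bin in Mb (negative toward the centromere), KO as red circles and WT as dark squares. The dash-dotted line marks Dxz4; Timp1 and Fhl1 drop below 0 just past it in WT and not in KO, and Plp2 shows the opposite order there.

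The stretch just across Dxz4 was then measured for all 10 genes, a measure added after the profiles were seen. It was the mean correlation with the 15 Mb of the other side that adjoin Dxz4. On mus, Timp1 had 0.0233 in KO, against -0.0690 in WT. Bgn had 0.0408 in KO and -0.0273 in WT. The glypican genes had -0.00290 in KO and -0.0498 in WT for Gpc3, and 0.0134 in KO and -0.0157 in WT for Gpc4. Fhl1 had 0.0127 in KO and -0.0707 in WT, and Flna had 0.0398 in KO and -0.0280 in WT. All of these genes were below 0 in WT, and of them only Gpc3 was below 0 in KO. The median of all left-hand bins was below 0 too, with -0.00796 in KO and -0.0448 in WT. Plp2 had -0.00898 in KO and 0.0470 in WT.

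Of the 7 left-hand genes 6 were thus higher in KO, against 85.3% of left-hand bins, so the direction itself was that of the side. The differences of Timp1, Fhl1, Bgn and Flna lay at the 98.3, 97.0, 90.0 and 89.6 percentiles of the 231 left-hand bins. That of Gpc3 lay at the 70.6 and that of Gpc4 at the 43.3. The median difference was 0.0678 for the genes and 0.0334 for all left-hand bins. The stretch was chosen after the profiles of Timp1 and Fhl1 had shown a gap there, so their ranks are no independent finding. Bgn and Flna are neighbours and not separate observations. The difference of Plp2, -0.0559, lay at the 0.433 percentile. At 100 kb the median of the left-hand genes was 0.00869. There Timp1 had -0.0116 in KO and -0.0109 in WT, so its difference was not seen at the smaller bin, whereas Fhl1 had -0.00997 in KO and -0.0346 in WT.

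The 3 right-hand genes were lower in KO with the 15 Mb left of Dxz4 on mus at 250 kb. Col4a6 had 0.0426 in KO and 0.0903 in WT, Col4a5 had 0.0438 in KO and 0.0823 in WT, and Tmsb4x had 0.0460 in KO and 0.0807 in WT. None of the 3 was higher in KO, against 46.9% of right-hand bins. The bins of 2 of these genes adjoin. At 100 kb Col4a5 was higher in KO, with 0.0101 in KO and 0.00305 in WT.

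On cas the same stretch gave other values. Of the left-hand genes 5 of 7 were higher in KO, against 46.8% of left-hand bins, and of the right-hand genes 2 of 3, against 29.2% of right-hand bins. Flna was lowest, with -0.162 in KO and -0.185 in WT, and Fhl1 highest, with 0.00989 in KO and -0.0150 in WT. The genes were below 0 there in both genotypes except for Fhl1 in KO, while the median of all left-hand bins was 0.0945 in KO and 0.0832 in WT. Nearly all of the gene bins were class A, against 20.1% of all bins. Class A bins were not measured apart for this stretch, so this contrast does not separate the genes from their class.

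The side difference compared the whole of both sides. It was the mean correlation of a bin with bins on its own side of Dxz4 minus that with bins across, after the mean of each distance was subtracted. Timp1, Plp2 and the 3 right-hand genes lie farther from every bin across Dxz4 than from any bin of their own side. For these genes the sides were not compared at equal distance, on mus or on cas. On mus all 7 left-hand genes were above 0 in KO and in WT, as were 93.1% of all left-hand bins in KO and 96.1% in WT. At 100 kb Gpc4 was below 0 in KO, with -0.00361 in KO and 0.00443 in WT. Of the 3 right-hand genes none was above 0 in KO and 1, Col4a6, in WT, with -0.00643 in KO and 0.00223 in WT. Of all right-hand bins 50.0% were above 0 in KO and 56.7% in WT. Over the 10 genes the counts above 0 were 7 in KO and 8 in WT, against 67.0% of all bins in KO and 72.2% in WT.

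Timp1 had a mus side difference of 0.0266 in KO, against 0.0559 in WT, the only gene to differ by more than 1 SD of all bins, as 32.9% of bins did. Its order turned at 100 kb (0.0130 in KO and 0.0104 in WT). Bgn had 0.0261 in KO and 0.0266 in WT, and Fhl1 had 0.0372 in KO and 0.0359 in WT. At 100 kb Fhl1 had 0.00812 in KO and 0.0216 in WT. Gpc3 had 0.0128 in KO and 0.0317 in WT, Gpc4 had 0.00979 in KO and 0.00681 in WT, Flna had 0.0172 in KO and 0.0336 in WT, and Plp2 had 0.0458 in KO and 0.0252 in WT. Col4a5 had -0.0153 in KO and -0.0103 in WT, and Tmsb4x had -0.00432 in KO and -0.00124 in WT. In all, 7 of 10 genes were lower in KO, against 61.3% of all bins. At 100 kb the direction turned for 5 of the 10, which were Timp1, Fhl1, Gpc4, Tmsb4x and Col4a6.

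On cas the right-hand genes stood well below 0 in both genotypes. Col4a6 had -0.0502 in KO and -0.0617 in WT, Col4a5 had -0.0518 in KO and -0.0581 in WT, and Tmsb4x had -0.0555 in KO and -0.0487 in WT, all below the 10 percentile of all bins. Of all right-hand bins 26.7% were above 0 in KO and 19.7% in WT. Every bin across Dxz4 lies farther from these genes than any bin of their own side. The sides were thus not compared at equal distance. Without the subtraction the values were nearer 0, with -0.00976 in KO and -0.0223 in WT for Col4a6. Col4a5 then had -0.0112 in KO and -0.0186 in WT, and Tmsb4x had -0.0103 in KO and -0.00271 in WT. Left of Dxz4, Bgn (0.0148 in KO and 0.00758 in WT) and Flna (0.0128 in KO and 0.0145 in WT) were above 0 in both genotypes. Fhl1 had 0.0119 in KO and -0.0127 in WT, and Gpc3 had 0.00255 in KO and -0.0163 in WT. These were the genes that differed by more than 1 SD on cas, as 35.6% of bins did, and Fhl1 turned at 100 kb (-0.000835 in KO and 0.000200 in WT).

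The remaining left-hand genes were below 0 on cas, Timp1 with -0.00574 in KO and -0.0128 in WT, Gpc4 with -0.0369 in KO and -0.0290 in WT, and Plp2 with -0.0189 in KO and -0.0213 in WT. Over the 10 genes 3 were lower in KO, against 34.6% of all bins. Those above 0 numbered 4 in KO and 2 in WT, against 20.6% of all bins in KO and 14.3% in WT.

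**Figure D3:**
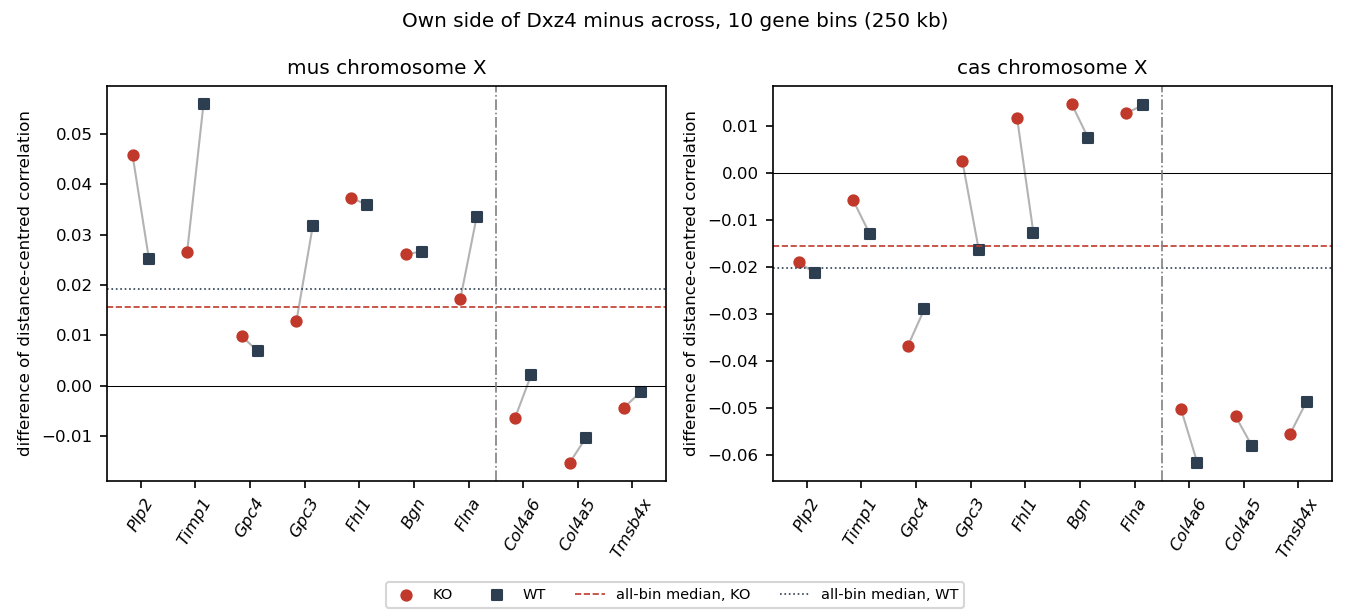
Side difference (mean distance-centred correlation with bins on the own side of Dxz4 minus that with bins across it, 250 kb, no unit) of the 10 gene bins, KO as circles and WT as squares, mus in the left panel and cas in the right. On mus the 7 left-hand genes lie above 0 and Timp1 shows the largest gap; on cas the 3 right-hand genes lie between -0.0617 and -0.0487.

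The genes were next compared with each other. Of the 45 pairs of gene bins, 42 were at least 2 Mb apart. On cas their entries were nearly all positive, 41 in KO and 42 in WT, against 57.8% of all bin pairs in KO and 57.9% in WT. Pairs of class A bins were positive in 98.1% in KO and 99.0% in WT, so this is the pattern of the class. The exception in KO was the pair of Fhl1 and Col4a5, with -0.0328 in KO and 0.128 in WT. The entries of 41 pairs in KO and 40 in WT were above the median of all pairs at like distance.

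Within a side 15 of 21 cas entries were higher in KO at 250 kb, against 49.5% of all same-side bin pairs, and 10 of 21 were at 100 kb. The medians of the 21 pairs were 0.165 in KO and 0.119 in WT at 250 kb, and 0.0505 in KO and 0.0541 in WT at 100 kb. Same-side pairs of class A bins had medians of 0.125 in KO and 0.131 in WT at 250 kb. Across Dxz4 the medians of the gene pairs were 0.108 in KO and 0.111 in WT, and 10 of 21 were higher in KO, against 47.2% of all such bin pairs. Timp1 and Fhl1 had 0.212 in KO and 0.0801 in WT on cas, an order that turned at 100 kb (0.0803 in KO and 0.0901 in WT). Gpc3 stood out among the left-hand pairs: it had 0.165 in KO and 0.00915 in WT with Plp2, 0.204 in KO and 0.0626 in WT with Timp1, and 0.174 in KO and 0.0357 in WT with Fhl1. With Flna it had 0.233 in KO and 0.167 in WT. Each of these had the same order at 100 kb, where Gpc3 and Timp1 had 0.112 in KO and -0.0198 in WT. Gpc3 and Plp2 were below 0 in both genotypes there, with -0.02975 in KO and -0.0557 in WT. Across Dxz4 the pair of Timp1 and Col4a6 was lower in KO, with 0.0529 in KO and 0.202 in WT, and at 100 kb with 0.00549 in KO and 0.0715 in WT. Col4a6 and Tmsb4x, on the right-hand side, had 0.0956 in KO and 0.239 in WT, but 0.0389 in KO and -0.0127 in WT at 100 kb. Bgn and Tmsb4x had 0.260 in KO and 0.146 in WT, but 0.00547 in KO and 0.0124 in WT at 100 kb. Flna and Tmsb4x, the actin-binding pair on opposite sides of Dxz4, had 0.253 in KO and 0.251 in WT.

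On mus the entries were smaller and mostly positive, 35 of 42 in KO and 38 in WT, against 70.1% of all bin pairs in KO and 66.2% in WT. Pairs of class A bins were positive in 74.6% in KO and 68.1% in WT. Of the 19 left-hand gene pairs 17 were positive in each genotype, against 87.0% of all left-hand bin pairs in KO and 82.3% in WT. The medians of the 42 entries were 0.0481 in KO and 0.0493 in WT. Of the 42, 32 in KO and 33 in WT were above the median of pairs at like distance. The pair of Plp2 and Timp1 had 0.152 in KO and 0.0539 in WT on mus, and 0.0426 in KO and -0.0199 in WT at 100 kb. Timp1 and Fhl1 had 0.113 in KO and 0.0276 in WT, at the 96.5 percentile of like distance in KO and the 67.7 in WT. Fhl1 and Col4a6, across Dxz4, had 0.116 in KO and 0.0303 in WT. Bgn and Tmsb4x were lower in KO, with -0.0251 in KO and 0.131 in WT, the opposite of their order on cas, but at 100 kb they had 0.0406 in KO and -0.0202 in WT on mus. Flna and Col4a5 were lower as well, with 0.0223 in KO and 0.122 in WT.

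The 3 neighbouring pairs were left out of those counts. On mus Gpc4 and Gpc3 had 0.117 in KO and 0.162 in WT, Bgn and Flna had 0.139 in KO and 0.189 in WT, and Col4a6 and Col4a5 had 0.127 in KO and 0.0725 in WT. The collagen pair in WT lay at the 12.1 percentile of bins at like distance, and in KO at the 54.8. On cas the collagen pair had 0.124 in KO and 0.123 in WT, Gpc4 and Gpc3 had 0.189 in KO and 0.168 in WT, and Bgn and Flna had 0.243 in KO and 0.162 in WT.

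**Figure D4:**
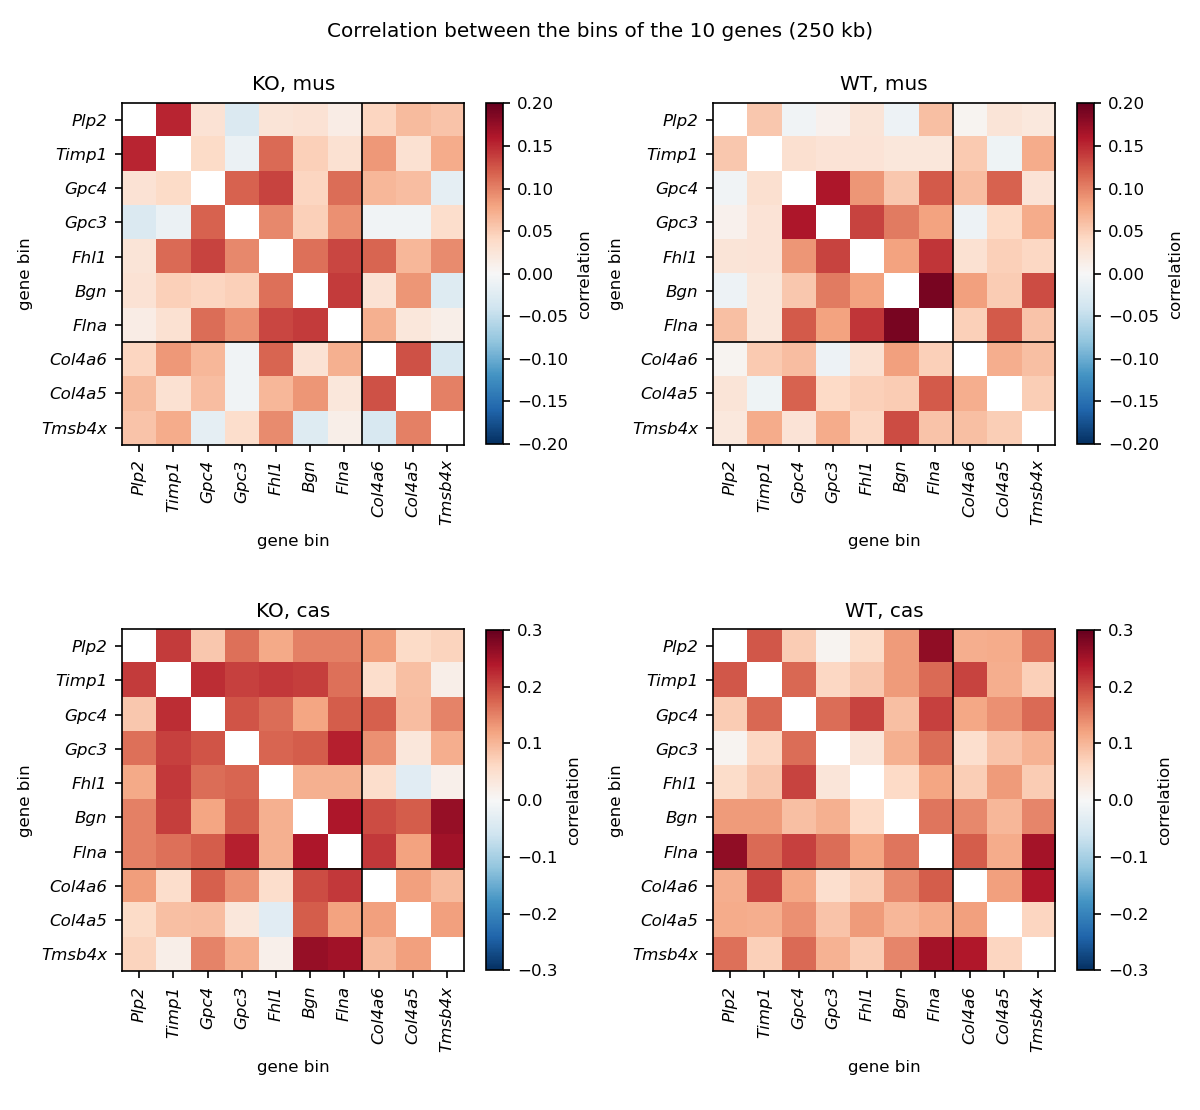
Matrix entries (correlation, no unit, 250 kb) between the bins of the 10 genes in order along the chromosome, for mus (top) and cas (bottom), KO on the left and WT on the right; black lines mark Dxz4, and the colour scale runs to 0.20 for mus and 0.30 for cas. Nearly all cas entries are positive in both genotypes, and the mus entries are smaller.

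Whole profiles of the gene bins were then correlated with each other. On mus they were less alike in KO, with a median Pearson r over the 42 pairs of 0.123 in KO and 0.272 in WT. The r was lower in KO in 34 of the 42 pairs, against 54.3% of all bin pairs. Over pairs of class A bins the medians were 0.0289 in KO and 0.0857 in WT. Across Dxz4 19 of 21 pairs were lower in KO, against 49.3% of all such bin pairs, with medians of 0.0728 in KO and 0.246 in WT. On the same side 15 of 21 were lower, against 59.2% of all such bin pairs, with medians of 0.214 in KO and 0.315 in WT. Of these 21, 19 lay left of Dxz4, and 13 of the 19 were lower in KO, against 63.0% of all left-hand bin pairs. The 19 had medians of 0.225 in KO and 0.315 in WT. All left-hand bin pairs had medians of 0.268 in KO and 0.313 in WT, so the left-hand gene pairs were near the background of their side. Fhl1 and Flna had 0.190 in KO and 0.571 in WT. Plp2 and Timp1 went the other way, with 0.411 in KO and 0.233 in WT. The 42 pairs are made from 10 bins and are not independent. On cas the profiles were alike in both genotypes, with medians of 0.850 in KO and 0.877 in WT. There 37 of 42 were lower in KO, against 51.7% of all bin pairs, but 75.1% of pairs of class A bins were also lower.

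Each gene's profile in KO was also set against its own profile in WT. On mus the median r over the 10 genes was 0.319, below the median of 0.491 over all 588 bins and of 0.405 over the 118 class A bins. Of the 10 genes 9 lay below the median of all bins, and so did 86 of the 118 class A bins. The lowest were Col4a5 with 0.156, Col4a6 with 0.191, Bgn with 0.206 and Plp2 with 0.212, all below the 10 percentile of bins. Gpc4 had 0.261, Flna 0.377, Gpc3 0.384, Tmsb4x 0.443 and Timp1 0.490. Fhl1 was highest on mus, with 0.588. On cas Fhl1 was lowest with 0.601, Plp2 had 0.800, and Flna was highest with 0.924. The cas median was 0.864 over the genes and 0.848 over all bins. Noise lowers such values, and bins along a profile are not independent.

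**Figure D5:**
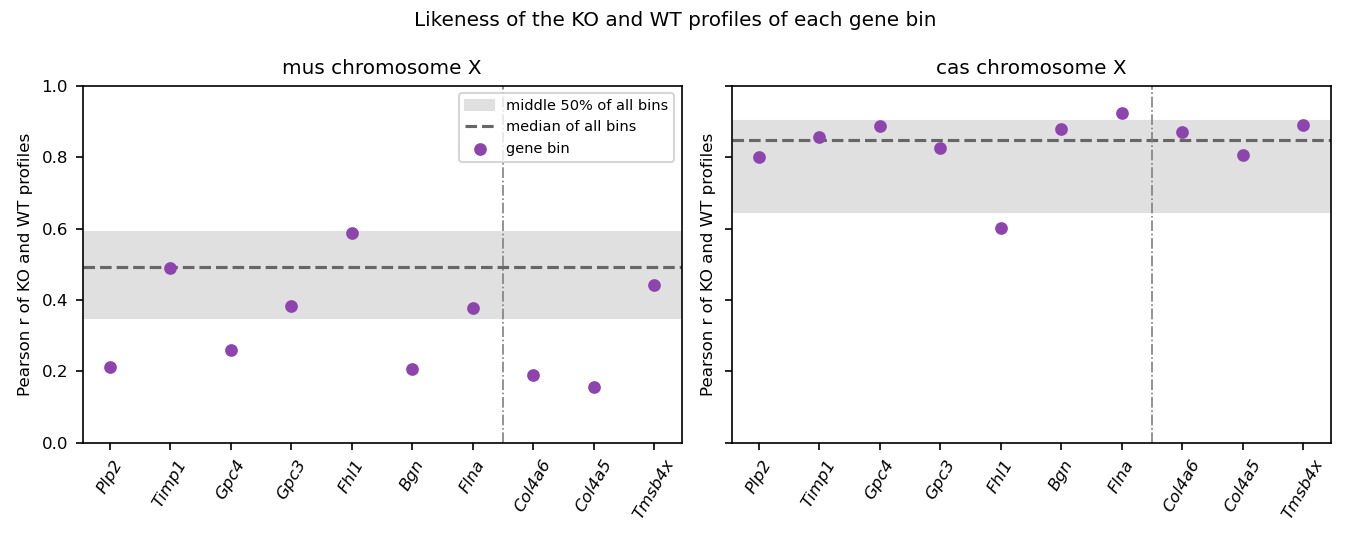
Pearson r (no unit) between the KO and WT profiles of each gene bin over bins at least 2 Mb away, mus in the left panel and cas in the right; the dashed line is the median and the grey band the middle 50% of all 588 bins. On mus 9 of 10 genes lie below the median, from 0.156 for Col4a5 to 0.490 for Timp1, and Fhl1 lies above it.

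The mus and cas profiles of a gene had little in common within a genotype. The median r between them was 0.0639 in KO and 0.124 in WT, against 0.111 in KO and 0.104 in WT over all bins. Gpc3 had the highest, 0.167 in KO and 0.258 in WT. Col4a6 had 0.0779 in KO and -0.159 in WT. The WT value lay at the 0.850 percentile of all bins.

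The bins whose profiles were most like those of the genes, among gene-holding bins at least 5 Mb away, were named by the mean r over KO and WT. On cas the bin of Hprt and Plac1 at 53 Mb was among the 2 nearest for Plp2, Timp1, Bgn, Flna, Col4a6, Col4a5 and Tmsb4x, with r of 0.953 in KO and 0.969 in WT for Flna. It lies less than 5 Mb from the bins of Gpc4, Gpc3 and Fhl1 and so was not a candidate for them. For Fhl1 the nearest was the bin of Timp1 (0.724 in KO and 0.780 in WT). On mus the bin of Samt2 and Gm15142 at 154.5 Mb, far across Dxz4, was among the nearest for Plp2 and Timp1, and on its own side for Tmsb4x, with r of 0.515 in KO and 0.629 in WT for Timp1. The bin of Brs3 and Htatsf1 at 57 Mb was among the nearest for Gpc4, Bgn and Flna. For Col4a6 it was the bin of Arxes1 and Bex2 at 136 Mb (0.267 in KO and 0.548 in WT).

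Local boundaries were scored at 100 kb as the average entry inside the 1 Mb flanks of a bin less the average entry between those flanks. On cas Bgn had 0.0777 in KO and 0.0540 in WT, and Timp1 had 0.0608 in KO and 0.0597 in WT, at the 93.4 percentile of bins or above. Gpc3 had 0.0288 in KO and 0.0102 in WT. On mus Gpc4 had 0.0146 in KO and 0.0135 in WT and Timp1 0.0130 in KO and 0.00831 in WT. Lower scores in KO were seen for 5 of 10 genes on mus, against 50.3% of all bins, and for 4 of 10 on cas, against 43.1% of all bins. The median differences were -0.000463 on mus and 0.000584 on cas, and both turned sign with another window.

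For 3 genes the outermost annotated base at the start lay in another bin than the midpoint. The start of Gpc3 lay in a bin with a cas compartment score of -0.177 in KO and -0.104 in WT, below 0, unlike the middle of the gene. That of Fhl1 lay in a bin with 0.302 in KO and 0.263 in WT on cas, but both RefSeq start windows of Fhl1 lay in its midpoint bin. The start of Col4a5 lay in the bin of Col4a6, so that values of both promoters are those given for Col4a6.

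A wider list of 26 other X-linked genes of the matrix, the surface and the cytoskeleton, in 23 bins, was measured the same way. On mus the compartment score was lower in KO in 7 of 9 left-hand bins and 3 of 14 right-hand bins, near the shares of all bins on those sides. The highest differences on mus were those of Pls3, the gene of an actin-bundling plastin, with -0.0247 in KO and -0.0538 in WT, and of Dmd, the dystrophin gene, with -0.00980 in KO and -0.0356 in WT. The lowest were those of Map7d3, a microtubule-associated protein gene in the bin of Fhl1, and of Emd, the gene of the nuclear envelope protein emerin, with -0.00579 in KO and 0.0300 in WT. On cas 13 of the 23 bins were lower in KO, against 39.1% of all bins. The highest there were Shroom2, an actin-binding protein gene, with 0.0851 in KO and -0.0370 in WT, and Itm2a, a membrane protein gene, with -0.271 in KO and -0.389 in WT. The lowest were Efnb1, the gene of an ephrin ligand, with 0.0299 in KO and 0.175 in WT, and Chrdl1, the gene of a secreted antagonist of bone morphogenetic proteins, with 0.244 in KO and 0.315 in WT.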

How the data were processed

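Hi-C reads of 2 KO and 2 WT samples were combined by genotype, split by allele and turned into 8 matrices of chromosome X (250 kb and 100 kb bins) by the authors, in the HOMER matrix format per the file headers. Each deposited score is the correlation of the contacts of 2 bins along the chromosome. Per the submitters' processing notes the tools were Bowtie2, cutadapt, Juicer and HOMER, on mm10, with no versions. How contacts were normalized, how alleles were assigned and how many reads were made was not given in the sources used here. Noise at low depth shrinks correlations, more so in smaller bins. The series' design text names Xist binding by CHART-seq, but the labels and headers describe Hi-C.

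Genes were placed with the RefSeq table of GRCm38.p6, and Dxz4 by the midpoint of 4933407K13Rik. A bin was used only if all 4 matrices of its size had data. Pairs were at least 2 Mb apart, and like distance means within 1 Mb. Boundary scores are not matched on distance. Comparisons are values, counts and medians beside all bins, with no test. Named genes are all 10, the 2 nearest gene-holding bins of each per allele with up to 2 genes each, and the 2 highest and 2 lowest of the wider list by KO minus WT compartment score per allele. Of the nearest bins the text gives those that recur and a few others, and some chosen by this rule are not reported here. Profile windows, gene pairs and sequences were picked after their values were seen. The members and lists were chosen with earlier results of these data known. Python 3.11.15, numpy 2.4.6, pandas 2.3.3 and matplotlib 3.10.9 were used. Functions were tested on simulated matrices of 588 bins, where the mean compartment score of the simulated A bins was off by 0.000150 from a planted 0.4. The mean side difference without subtraction of the mean of each distance was off by at most 1.25e-05 from a planted 0.05. The side difference after that subtraction, the one reported as the main value, was not tested on simulated matrices. Alternatives were the other bin size, 5 Mb as minimum distance, division by the SD, distance subtraction, 10% classes, other windows, rank correlation, adjacent bins and gene starts.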

Additional observations from a re-analysis of the deposited data

Results flagged for a closer look

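The median difference between the genotypes over the 10 genes, KO minus WT, had opposite signs on mus and cas for the following measures. The side difference had a median of -0.00402 on mus and 0.00671 on cas. The boundary score had a median of -0.000463 on mus and 0.000584 on cas. Over all bins the signs were opposite in the same way, with medians of -0.00630 on mus and 0.00478 on cas for the side difference and of -6.11e-05 on mus and 0.00145 on cas for the boundary score. At 100 kb the cas median of the side difference over the 10 genes was -0.000102. With 1 matrix for each genotype and allele, these differences between the alleles were not tested.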

How the results depend on the processing

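No paired analysis was possible because the replicates of each genotype were combined in the deposited matrices, and for the same reason leaving out a replicate was not run. The limits are the unknown depth, bins that hold several genes, and 1 matrix per genotype and allele. Of 94 medians and counts recomputed under an alternative, 57 kept their sign and stayed within 1.5 times the reported value, 30 kept their sign and moved further, and 7 changed sign. Division of each matrix by its SD changes the unit, so its sizes are not comparable with the others. The causes were not tested.

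At 100 kb the median KO minus WT side difference was -0.000102 on cas, where 5 genes were lower in KO, and the median compartment difference was -0.00245 on mus and -0.00930 on cas. The median difference of entries between gene bins was -0.00314 on mus and 0.000560 on cas, likeness of KO and WT was 0.0448 on mus and 0.546 on cas, likeness of mus and cas was 0.0392, and the difference for the left-hand genes in the 15 Mb across Dxz4 was 0.00869 on mus and 0.00843 on cas. Also at 100 kb, the side difference of Timp1 was 0.00258 higher in KO on mus and that of Fhl1 -0.00104 on cas, and the mus compartment difference was 0.00292 for Flna and -0.00185 for Col4a6. After division by the SD the medians were -0.0794 on mus and 0.0212 on cas for the side difference, -0.200 and 0.0981 for the compartment score, -0.0152 and 0.0356 for the boundary score (1 gene lower on cas) and 0.182 and 0.245 for entries between gene bins. With gene starts the side difference on mus was -0.00788 and the compartment difference -0.0107 on mus and -0.0357 on cas. With 10% classes the cas compartment difference was -0.00979, and with adjacent bins averaged -0.0275. Subtracting the mean of each distance gave 0.00986 on mus and 0.0200 on cas for entries, and averaging adjacent bins -0.00619 and 0.00172. Boundary medians were 0.00165 on mus and 0.00795 on cas with a 500 kb window (1 gene lower on cas), -0.00181 and -0.000947 with 2 Mb, and -0.00821 and -0.00568 with 250 kb bins (7 genes lower on cas). Stretches of 10 and 20 Mb across Dxz4, added after seeing the data, gave 0.0753 and 0.0587 on mus.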
